A study of Mus musculus with 12 samples.

Results

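Mouse ES cells that had lost most of the mRNA for Dnmt1, the enzyme that copies DNA methylation after replication, were compared directly with ES cells depleted of Mbd3, a protein of the methyl-CpG-binding family. Of the 12 expression arrays of the study, the 4 arrays labelled Dnmt1 KD or Mbd3 KD were compared, 2 of each. All came from E14 ES cells, an embryonic stem cell line grown without feeder cells on gelatin in serum and LIF, and all were collected 48 hr after transfection of esiRNAs, which are mixtures of short RNAs made from one longer RNA, against the gene named. Replicate 1 of both KDs lay on one slide (slide 1) and replicate 2 of both on another (slide 3), so each replicate gave a Dnmt1 KD minus Mbd3 KD difference measured within a slide. The EGFP KD control arrays do not enter this difference, which therefore says which KD had the higher level and not which of them moved away from control cells. A KD lowers an mRNA without removing it, and the cells were not sorted.

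DNA methylation in mammals sits mainly on the cytosine of CpG dinucleotides. Dnmt1 restores it on the new strand at each division and in this way keeps methylated promoters silent. Mbd3 is a subunit of NuRD, a complex that pairs the nucleosome remodeler Chd4 with histone deacetylases. In ES cells NuRD is known for damping pluripotency genes and for allowing exit from self-renewal, whereas loss of methylation is best known for releasing germline genes whose promoters are methylated in other cells.

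Signal was background-corrected Cy3 intensity from Agilent arrays, divided by the 75th percentile of the array and given as log2, so that 0 is the level of a probe at that percentile and 1 unit is a doubling. One probe, the brightest, stood for each of 29819 genes, of which 19385 had a gene symbol. Between 76.9% and 86.2% of probes were well above background on the 4 arrays. Many differences seen on a single slide were grouped by position on the array. There were 734 genes at least 1 unit higher in Mbd3 KD on slide 1 with a difference under 0.5 on slide 3, and 94.4% of them lay among the lower rows of the array, past the midpoint, against 48.6% of all genes tested. Of the 429 genes with the same pattern on slide 3 alone, 4.66% lay there. Of the 186 genes that differed by at least 1 in the same direction on both slides, 53.8% did. Of the 24 genes named below besides the targets, 41.7% did. With the array cut into 24 blocks, the 3 fullest blocks held 45.8% of the named genes. The like share was 24.7% for the 186 genes and 13.5% for all genes tested. So few named genes cannot fill the blocks evenly, and a link of their differences to position was not tested. Of the ES cell markers Pou5f1, Sox2, Zfp42, Esrrb, Dppa5a, Utf1 and Tdgf1, each was well above background on all 4 arrays with a difference of under 0.5 between the KDs. The probe for Nanog was near the floor on all 4 arrays. Pou5f1, Zfp42, Esrrb, Dppa5a and Utf1 were very bright, reading between 4.46 and 5.54. From 1066 to 1288 probes per array were marked as saturated, and saturation can hide differences between bright probes. The small differences of these markers are therefore weak evidence of equal levels. What set the grouping by position was not tested, and in such bulk samples fewer cells of a type and less RNA per cell cannot be told apart.

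The targeted genes were examined first. Mbd3 read 4.15 and 4.38 in replicates 1 and 2 of Dnmt1 KD and 1.34 and 1.56 in Mbd3 KD. The difference was 2.82 (SE 0.13), a 7.05-fold lower level in Mbd3 KD, and a second Mbd3 probe differed by 2.72. Dnmt1 read -0.54 and -1.25 in Dnmt1 KD and 1.03 and 0.98 in Mbd3 KD, so its level was lower by 1.90 (SE 0.50) where it was targeted, with the stronger depletion in replicate 2. Neither group of arrays overlapped the other for either gene, and both targets matched their labels on both slides. The tests gave adjusted p = 0.112 for Mbd3 and 0.274 for Dnmt1, where the p-values came from limma with slide as a block and were Benjamini-Hochberg adjusted over all genes. Neither passed 0.05.

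No gene passed an adjusted p of 0.05 in this comparison (0 of 29819, or 0%), and the smallest adjusted p was 0.112. At an unadjusted p under 0.05 there were 3753 genes (12.6%), of which 2376 (7.97% of genes tested) were higher in Dnmt1 KD and 1377 (4.62%) were higher in Mbd3 KD. That balance depended on the treatment of the arrays. It tipped toward Mbd3 KD when Dnmt1 KD replicate 1 or Mbd3 KD replicate 2 was left out. When each array was centred locally over small blocks of spots, 53.2% of the genes at this threshold were higher in Dnmt1 KD, against 63.3% without local centring. Across genes the differences on the 2 slides correlated weakly (Pearson's r = 0.142 over genes, which are not independent), and 54.7% of genes with a nonzero difference on both slides had the same direction on both. A difference of at least 1 on both slides was found for 111 genes higher in Dnmt1 KD (0.372% of genes tested) and 75 genes higher in Mbd3 KD (0.252%), against 16 with opposite directions. With local centring the counts were 94 and 98. The arrays of the 2 KDs did not overlap for 12.4% of genes in the direction of Dnmt1 KD and 8.53% in the direction of Mbd3 KD. A fit over all 12 arrays called 208 genes (0.698%), with 125 higher in Dnmt1 KD (0.419%) and 83 higher in Mbd3 KD (0.278%). Leaving either EGFP KD array out of it only gives back the main fit, so these calls need both EGFP KD arrays in the estimate of spread. The spread in the main fit rests largely on the Tet1 KD and Mbd2 KD arrays. Each of these groups holds an array that goes against its label. Without these groups the smallest adjusted p was 0.594, the same as with only the Dnmt1 KD and Mbd3 KD arrays and the replicate block. That refit also has fewer residual degrees of freedom, so it cannot show what the Tet1 KD and Mbd2 KD arrays did to the spread. The genes below are thus described by their levels on each array, and none is called changed.

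**Figure D1:**
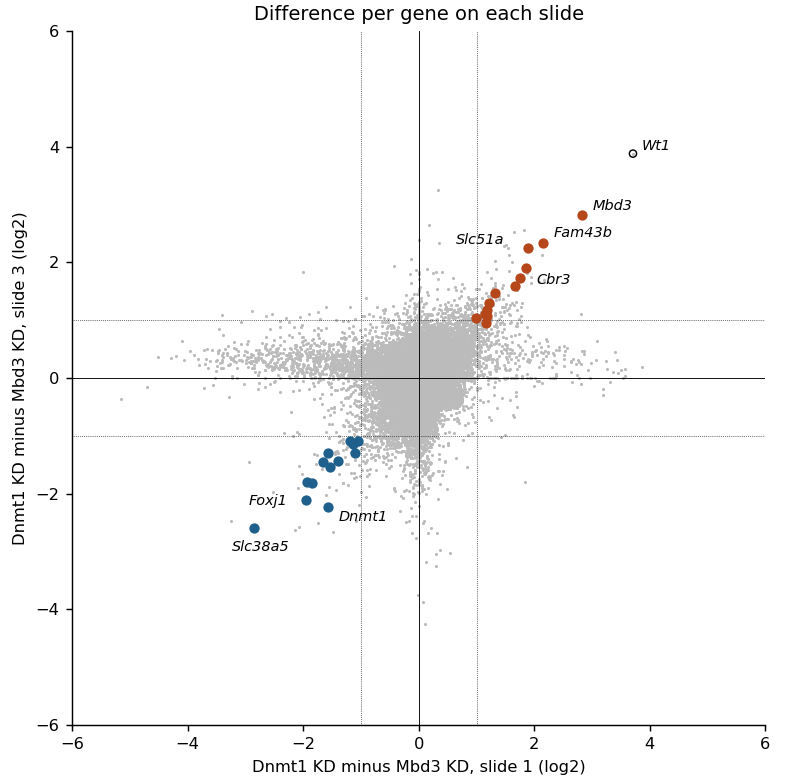
Each grey point is 1 of the genes tested, with the Dnmt1 KD minus Mbd3 KD difference (log2) on slide 1 on the horizontal axis and on slide 3 on the vertical axis. Orange and blue points are the named genes higher in Dnmt1 KD and in Mbd3 KD, the open circle is Wt1, and dotted lines mark a difference of 1. The arms along the axes are genes that differed on a single slide, while Mbd3 (2.82 on both slides) and Slc38a5 (-2.86 and -2.59) lie far out on the diagonal.

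The 12 genes with the smallest p among those at least 1 unit higher in Dnmt1 KD included a pair of carbonyl-reducing enzymes. Cbr3, a carbonyl reductase that uses NADPH, read 4.23 and 4.19 in Dnmt1 KD and 2.38 and 2.29 in Mbd3 KD (difference 1.88, SE 0.10). Akr1b8, an aldo-keto reductase, read 2.38 and 2.45 against 1.21 and 1.37 (difference 1.13, SE 0.061). Both were among the brighter genes of the arrays, and for both the replicates of a KD lay close together. As named genes were chosen by small p and size of difference, close replicates and separated KDs largely follow from the choice.

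Genes for signalling proteins and a transcription factor were in the same group. Fzd10, a Frizzled receptor for Wnt ligands, read 0.38 and 0.51 in Dnmt1 KD and -0.94 and -0.97 in Mbd3 KD (2.64-fold, SE of the log2 difference 0.11). Ltbr, the lymphotoxin beta receptor, was dim in both KDs, at -2.37 and -2.55 against -3.59 and -3.85 (difference 1.26, SE 0.071). Ebf1, a transcription factor of B cell development, read -2.84 and -2.87 against -4.03 and -4.05 (difference 1.18, SE 0.064). In all of these the arrays of the 2 KDs were well separated, which the choice of genes largely fixed.

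Grrp1 had the smallest p of any gene, reading 0.52 and 0.70 in Dnmt1 KD and -1.24 and -1.02 in Mbd3 KD (difference 1.74, SE 0.058). Fam43b read -2.71 and -2.52 in Dnmt1 KD and was not well above background on either Mbd3 KD array, so that with the floor used its level was at least 4.751-fold higher in Dnmt1 KD. That bound depends on the background correction, since normexp gave a log2 difference of 1.497. Slc51a, a subunit of a bile acid and steroid exporter, read -2.97 and -2.60 in Dnmt1 KD and sat at the floor of -4.86 on both Mbd3 KD arrays, where it was well above background on 1 of the 2, and its difference of 2.07 was 1.39 under normexp. The remaining genes of the group were Ube2l6, which conjugates the ubiquitin-like protein ISG15 (difference 1.13), Fxyd5, a regulator of the sodium pump (1.01), Wdr95 (1.63) and Ankrd34a (1.06). A second probe for Wdr95 differed by -0.35 and one for Ankrd34a by -0.14, so for these genes the probes disagreed.

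In the other direction, the largest difference among the 12 named genes was that of Slc38a5, a transporter of glutamine and other neutral amino acids. It read 1.496 and 1.60 in Mbd3 KD and -1.36 and -0.99 in Dnmt1 KD (difference -2.72, SE 0.14), a 6.61-fold gap. Of 25 amino acid transporters tested, 2 were higher in Dnmt1 KD and 4 higher in Mbd3 KD at an unadjusted p under 0.05, against 7.97% and 4.62% of all genes, and the second count was 1 without Dnmt1 KD replicate 2 and 2 without Mbd3 KD replicate 1. Slc43a1, a transporter of large neutral amino acids, had a difference of 1.01 the other way.

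Adgrg1, Ly6h and Foxj1 had the smallest p in this direction. Foxj1, the transcription factor that drives motile cilium formation, read -2.05 and -1.90 in Mbd3 KD and -3.99 and -4.01 in Dnmt1 KD (difference -2.02, SE 0.10). Adgrg1, an adhesion G protein-coupled receptor, read -1.12 and -1.33 against -3.05 and -3.12 (difference -1.86, SE 0.088). Ly6h, a lipid-anchored surface protein, read 0.30 and 0.21 against -1.10 and -1.22 (difference -1.41, SE 0.068), and its second probe gave -1.81. For each of these genes the lower Mbd3 KD array was more than 1 unit above the higher Dnmt1 KD array, a gap that the choice of genes favours.

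Oasl1, an interferon-induced protein of the oligoadenylate synthetase family, read -0.48 and -0.21 in Mbd3 KD and -2.32 and -2.03 in Dnmt1 KD (difference -1.83, SE 0.10). Padi4, which converts arginine of histones to citrulline, read -0.85 on both Mbd3 KD arrays and -2.42 and -2.15 in Dnmt1 KD (difference -1.43, SE 0.094), although a second probe differed by only -0.23. The other named genes higher in Mbd3 KD were Slc45a1, a sugar transporter (difference -1.55), Endod1 (-1.54), Nfatc2, a calcium-responsive transcription factor (-1.19, with -0.48 at its second probe), Tm6sf1 (-1.14), the metalloprotease Adam8 (-1.14) and the splicing factor Prpf4 (-1.07). All 24 named genes had adjusted p between 0.112 and 0.120.

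**Figure D2:**
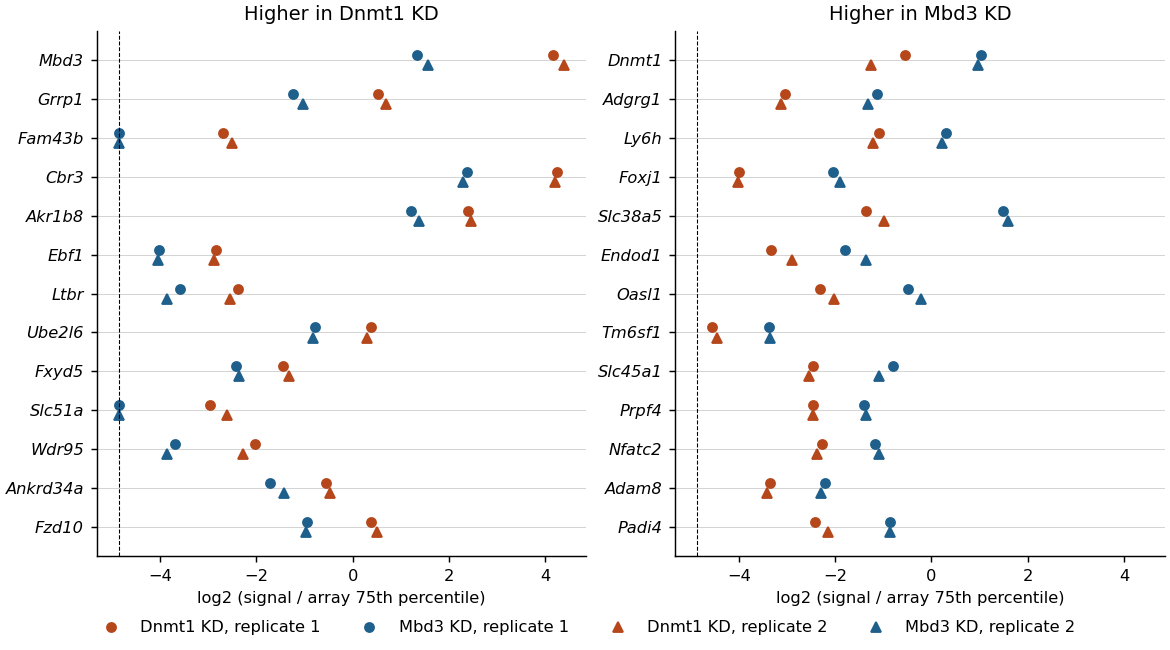
Levels of the targeted and named genes on each of the 4 arrays, as log2 signal over the array's 75th percentile. Circles are replicate 1 and triangles replicate 2, orange is Dnmt1 KD, blue is Mbd3 KD, and the dashed line is the floor at -4.86. In every row the 2 KDs are separated, which for the named genes largely follows from how they were chosen. Fam43b and Slc51a sit at the floor in Mbd3 KD.

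Arrays labelled with other KDs on slide 3 give further levels of these genes. The Mbd2 KD array there is replicate 2, on which Mbd2 read -0.85, against -0.39, -0.71 and -0.54 on the Dnmt1 KD, Mbd3 KD and Chd4 KD arrays beside it. It is not the Mbd2 KD array that goes against its label, which lay on slide 1. Mbd2 on the slide 3 array was still only slightly below the arrays beside it. The levels on that array therefore cannot be read as the effect of strong Mbd2 loss. On slide 3 the Chd4 KD array read -0.81 for Foxj1 and -0.67 for Adam8, both above the Mbd3 KD array beside it, and it read 0.34 for Ly6h and -1.13 for Nfatc2, close to Mbd3 KD. It read 0.88 for Cbr3, below Mbd3 KD, and -4.77 for Fam43b, near the floor. For Akr1b8 it read 2.35, close to Dnmt1 KD. Over the named genes its level was closer to Mbd3 KD than to Dnmt1 KD of the same slide for 9 of 12 genes higher in Dnmt1 KD and 9 of 12 higher in Mbd3 KD, and the array labelled Mbd2 KD was so for 2 and 0. That Mbd2 KD array read -4.14 for Foxj1, -1.37 for Ly6h and 3.86 for Cbr3, near the Dnmt1 KD levels. For Slc38a5 the Chd4 KD array read -0.44, between the Dnmt1 KD and Mbd3 KD arrays. These are single arrays that also entered the fit, and their differences were not tested. The counts cover only genes chosen for their Dnmt1 KD minus Mbd3 KD difference. No such share was computed over all genes, so they do not say which KDs resemble each other in general.

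Since the comparison sets loss of a methylation writer against loss of an Mbd protein, the CpG content of promoters was described. RefSeq windows of 300 bases, from 250 before to 50 after the start of the gene on GRCm38.p6, were found for 15381 of the 19385 tested genes with a symbol, and the first window listed was used for each. Over all of them the median was 15 CpGs, and 62.5% held 10 or more. The 91 genes with a symbol that were at least 1 unit higher in Dnmt1 KD on both slides had 70 windows with a median of 14.5 CpGs, and 64.3% held 10 or more. The 71 genes higher in Mbd3 KD had 49 windows with a median of 9, and 46.9% held 10 or more. Windows with 3 or fewer made up 12.9% and 8.16% of these sets and 20.1% of all windows. The sets include the targeted genes, Mbd3 among those higher in Dnmt1 KD and Dnmt1 among those higher in Mbd3 KD. Dnmt1 entered with its first listed window of 2 CpGs, while its other windows held 12 and 33. The median window of genes higher in Mbd3 KD thus held fewer CpGs than that of all genes, and that of genes higher in Dnmt1 KD was close to it. These shares are descriptions with no test.

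The windows of 6 named genes are printed 5′ to 3′ to show this range, with every CpG in capitals. They are the first 3 genes by p in each direction that had a window. Higher in Dnmt1 KD were Grrp1 at chr4:134254057-134254356 (minus strand), with 6 CpGs, Fam43b at chr4:138396409-138396708 (minus strand), with 20, and Cbr3 at chr16:93682969-93683268 (plus strand), with 19. Higher in Mbd3 KD were Adgrg1 at chr8:94976859-94977158 (plus strand), with 7, Slc38a5 at chrX:8271131-8271430 (plus strand), with 10, and Oasl1 at chr5:114922990-114923289 (plus strand), with 8.
Grrp1: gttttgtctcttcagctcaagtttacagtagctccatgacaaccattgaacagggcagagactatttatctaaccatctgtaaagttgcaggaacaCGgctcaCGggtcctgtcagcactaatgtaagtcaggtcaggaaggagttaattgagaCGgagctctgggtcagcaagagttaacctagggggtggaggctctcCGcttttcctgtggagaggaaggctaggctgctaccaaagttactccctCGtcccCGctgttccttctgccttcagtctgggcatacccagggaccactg
Fam43b: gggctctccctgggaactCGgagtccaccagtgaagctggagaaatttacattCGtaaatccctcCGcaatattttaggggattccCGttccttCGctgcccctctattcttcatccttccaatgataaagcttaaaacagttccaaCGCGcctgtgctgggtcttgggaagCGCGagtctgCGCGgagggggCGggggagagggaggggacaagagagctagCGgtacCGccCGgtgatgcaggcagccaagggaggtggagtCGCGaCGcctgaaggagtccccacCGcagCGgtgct
Cbr3: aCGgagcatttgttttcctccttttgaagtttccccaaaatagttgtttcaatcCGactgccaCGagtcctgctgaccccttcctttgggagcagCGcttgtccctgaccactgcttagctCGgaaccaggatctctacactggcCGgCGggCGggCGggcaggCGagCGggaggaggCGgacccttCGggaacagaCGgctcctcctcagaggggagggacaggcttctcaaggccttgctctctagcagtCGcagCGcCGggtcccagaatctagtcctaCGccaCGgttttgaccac
Adgrg1: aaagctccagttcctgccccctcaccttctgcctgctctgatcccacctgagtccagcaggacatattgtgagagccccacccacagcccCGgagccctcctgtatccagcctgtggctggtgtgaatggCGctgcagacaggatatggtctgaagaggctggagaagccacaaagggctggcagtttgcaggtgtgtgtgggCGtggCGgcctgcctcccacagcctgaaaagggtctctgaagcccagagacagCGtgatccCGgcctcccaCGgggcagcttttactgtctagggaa
Slc38a5: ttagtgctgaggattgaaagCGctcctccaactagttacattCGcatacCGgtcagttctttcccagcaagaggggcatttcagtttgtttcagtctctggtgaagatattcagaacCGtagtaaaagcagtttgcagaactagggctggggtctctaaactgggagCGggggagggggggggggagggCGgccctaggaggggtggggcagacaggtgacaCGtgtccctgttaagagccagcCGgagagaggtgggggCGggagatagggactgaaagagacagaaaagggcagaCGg
Oasl1: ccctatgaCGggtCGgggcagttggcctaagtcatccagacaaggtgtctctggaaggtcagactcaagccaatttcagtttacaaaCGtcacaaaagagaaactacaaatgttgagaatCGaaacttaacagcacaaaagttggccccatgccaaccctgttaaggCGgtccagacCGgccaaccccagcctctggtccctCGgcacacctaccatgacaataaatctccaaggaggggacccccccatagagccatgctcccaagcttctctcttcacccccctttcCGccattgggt
Fam43b and Cbr3 were above the median of all windows, and the other genes shown were below it.

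**Figure D3:**
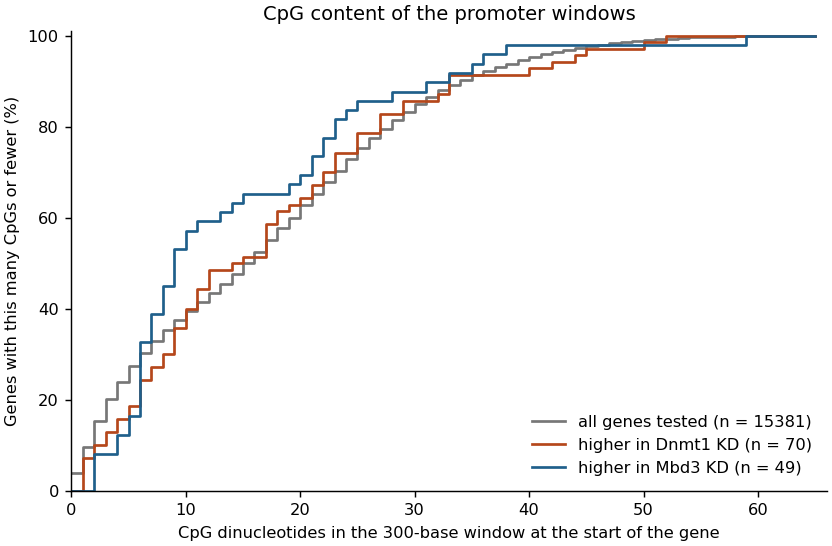
Cumulative share of genes (vertical axis, %) by the number of CpGs in the 300-base window at the start of the gene (horizontal axis), for all genes tested (grey, n = 15381) and for genes at least 1 unit higher on both slides in Dnmt1 KD (orange, n = 70) or Mbd3 KD (blue, n = 49). The blue curve lies below the grey one at 5 CpGs and above it at 10, and its median is 9 against 15 for all genes. The targeted genes are included.

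Genes were then grouped by function. The lists, that of amino acid transporters above included, were written with earlier results of these data known. Their counts are descriptions and no independent evidence of a direction. Epithelial adhesion genes were more often higher in Mbd3 KD. Of 29 tested, 10 were higher in Mbd3 KD and 2 higher in Dnmt1 KD at an unadjusted p under 0.05, against 4.62% and 7.97% of all genes, and the median difference was -0.24 against 0.0064 over all genes. On both slides 18 of them were higher in Mbd3 KD and 5 in Dnmt1 KD, against 5979 and 7829 of the 29819 genes tested. The count of 10 was between 7 and 10 when 1 of the 4 arrays was left out. S100a14, a calcium-binding protein of epithelia, read -0.71 and -0.67 in Mbd3 KD and -3.49 and -2.74 in Dnmt1 KD (difference -2.43, SE 0.19, adjusted p = 0.120). Cldn7, a tight junction claudin, read 1.69 and 2.37 against 0.39 and 0.55 (difference -1.56, SE 0.17). The junction scaffold Tjp3 (-0.73), the epithelial sorting adaptor Ap1m2 (-1.43), the recycling GTPase Rab25 (-1.30) and E-cadherin, Cdh1 (-0.68), were also higher in Mbd3 KD on both slides. Not all tight junction genes were, since Cldn3 read -1.01 and -0.96 in Dnmt1 KD and -2.25 and -2.34 in Mbd3 KD (difference 1.32).

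Trophectoderm genes, which mark the outer layer of the blastocyst, were examined next and include simple-epithelium keratins. Of 20 tested, 6 were higher in Mbd3 KD and 2 in Dnmt1 KD, against 4.62% and 7.97% of all genes, with a median difference of -0.16. Without Dnmt1 KD replicate 1 the counts were 7 and 3 and the median -0.035, and without Dnmt1 KD replicate 2 the median was -0.086. Krt19 read 1.19 and 1.43 in Mbd3 KD and -0.83 and -0.23 in Dnmt1 KD (difference -1.84, SE 0.23). The keratins Krt8 (-1.15) and Krt18 (-0.62) were also higher in Mbd3 KD. The transcription factors Tfap2c (-0.92) and Tead4 (-0.68) followed. The lineage-defining Cdx2 and Elf5 were each well above background on only 2 of the 4 arrays, and Hand1 (0.84) and Ascl2 (0.59) were higher in Dnmt1 KD, so the list held both directions.

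Genes of the Wnt and BMP pathways were examined as signals that ES cells respond to. Of 28 Wnt pathway genes tested, 5 were higher in Dnmt1 KD and 1 in Mbd3 KD, against 7.97% and 4.62% of all genes (median 0.12). The counts were 4 and 3 without Dnmt1 KD replicate 2, and 6 and 3 with a median of 0.0092 without Mbd3 KD replicate 2. Sp5, a direct transcriptional target of Wnt signalling, read -1.48 and -1.35 in Dnmt1 KD and -2.88 and -2.78 in Mbd3 KD (difference 1.41, SE 0.11). Lef1, a nuclear effector that is itself a Wnt target, read -1.21 and -0.91 against -2.68 and -2.27 (difference 1.41, SE 0.30), and the receptor Fzd2 (1.12) and the ligand Wnt6 (1.16) had the same direction as Fzd10. Dkk3, a secreted protein related to Wnt inhibitors, was higher in Mbd3 KD (difference -1.39).

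Of 24 Nodal, BMP and TGF-beta genes, 7 were higher in Dnmt1 KD and 2 in Mbd3 KD, against 7.97% and 4.62% of all genes (median 0.25). The counts were 2 and 1 with a median of 0.085 without Dnmt1 KD replicate 2, 4 and 3 without Mbd3 KD replicate 1, and 4 and 2 with a median of 0.14 without Mbd3 KD replicate 2. Id1 and Id2, which BMP signalling induces, differed by 0.94 and 1.01, and Smad6, an inhibitory Smad induced by the same signal, read -2.03 and -1.89 in Dnmt1 KD against -2.98 and -2.95 (difference 1.01, SE 0.086). The activin subunit Inhbb differed by 1.04 and the ligand Bmp7 by 0.62. The Nodal antagonist Lefty1 differed by -0.69, on the opposite side. Myc, a target of several of these pathways and of LIF signalling, read 0.57 and 1.096 in Dnmt1 KD and -0.76 and -0.79 in Mbd3 KD (difference 1.61, SE 0.29).

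Germline genes are the class best known for silencing by promoter methylation. Of 28 tested, 6 were higher in Dnmt1 KD and 1 in Mbd3 KD, against 7.97% and 4.62% of all genes, with a median difference of 0.14. Without Dnmt1 KD replicate 1 the counts were 3 and 0, and without Mbd3 KD replicate 2 they were 4 and 1 with a median of 0. Gtsf1, a factor of piRNA silencing, read 1.21 and 1.405 in Dnmt1 KD and 0.33 and 0.54 in Mbd3 KD (difference 0.88, SE 0.061). Cyct, the testis cytochrome c, differed by 0.82. Sycp1, of the synaptonemal complex, read -3.54 and -3.73 in Dnmt1 KD and lay at the floor on both Mbd3 KD arrays, while Sycp3, of the same complex, was higher in Mbd3 KD (0.04 and 0.09 against -1.05 and -0.82).

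The X-linked Rhox homeobox genes, expressed in the reproductive tract and the early embryo, divided within the cluster. Rhox6, Rhox9, Rhox10 and Rhox13 were higher in Mbd3 KD, with differences of -1.26, -0.99, -0.81 and -0.41. Rhox8 was higher in Dnmt1 KD by 0.86. At an unadjusted p under 0.05 these are 4 and 1 of 10 genes tested, against 4.62% and 7.97% of all genes. The median difference of -0.26 was -0.079 without Dnmt1 KD replicate 1. Rhox4a and Rhox4g, chosen after their values were seen, differed by 1.34 and 1.28 toward Dnmt1 KD, although their near-identical copies may share signal. Rhox4e, the other Rhox4 gene tested, differed by -0.14. Among imprinted genes, the maternally expressed Slc22a18 (-0.79) and the long noncoding RNA Meg3 (-0.69) were higher in Mbd3 KD, and Ascl2 (0.59), Cdkn1c (0.50) and the paternally expressed Dlk1 (0.92) were higher in Dnmt1 KD. Other Meg3 probes gave -0.17 and -0.10. At this threshold 2 of 15 maternally and 5 of 25 paternally expressed genes were higher in Dnmt1 KD (7.97% of all genes), and 3 and 2 were higher in Mbd3 KD (4.62%).

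Interferon-stimulated genes did not share a direction, with 4 of 25 higher on each side, against 7.97% of all genes higher in Dnmt1 KD and 4.62% in Mbd3 KD, and a median difference of 0.0078. The count higher in Dnmt1 KD was 2 without replicate 2 of either KD. Besides Oasl1, Xaf1, which promotes apoptosis, read 1.28 and 1.33 in Mbd3 KD and -0.82 and -0.57 in Dnmt1 KD (difference -1.999, SE 0.32), and the antiviral enzyme Rsad2 differed by -1.14. The restriction factors Bst2 (0.62) and Ifitm3 (0.96) and the RNA sensor Ddx58 (0.60, with 0.10 at its second probe) were higher in Dnmt1 KD. Of 26 p53 target genes, 6 were higher in Mbd3 KD and 3 in Dnmt1 KD, against 4.62% and 7.97% of all genes, with differences such as -0.60 for Zmat3 and 0.25 for Cdkn1a. These counts were 6 and 0 with local centring or without Dnmt1 KD replicate 1, 2 and 1 without Dnmt1 KD replicate 2, 4 and 0 without Mbd3 KD replicate 1, and 3 and 4 without Mbd3 KD replicate 2. Of 19 Nrf2 antioxidant genes, 3 were higher in Dnmt1 KD and 0 in Mbd3 KD, against 7.97% and 4.62% of all genes. Besides Cbr3 these were Gsta3 (0.52) and Cbr1 (0.38), and the median was 0.035. Without Dnmt1 KD replicate 1 the counts were 3 and 4 and the median -0.059.

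Of 24 pluripotency factors tested, 3 were higher in Dnmt1 KD and 2 in Mbd3 KD, against 7.97% and 4.62% of all genes, with a median of 0.0012. Gbx2, a LIF target, read 1.20 and 1.095 in Dnmt1 KD and -0.09 and -0.38 in Mbd3 KD (difference 1.39, SE 0.20), and Dppa3, which guards methylation in the early embryo, differed by 0.93. Tbx3 (-0.85) and Tfcp2l1 (-0.53), both factors of naive pluripotency, were higher in Mbd3 KD, as was Otx2, a factor of the formative epiblast (1.76 and 2.07 against 0.70 and 0.91, difference -1.11).

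Besides Mbd3, none of 11 NuRD subunits tested had an unadjusted p under 0.05, against 12.6% of all genes in either direction. Chd4 read 3.93 and 4.24 in Dnmt1 KD and 3.85 and 4.46 in Mbd3 KD (difference -0.07). Mbd2 differed by 0.14. Of the methylation writers and partners, Dnmt3b was higher in Dnmt1 KD by 0.40, Dnmt3a differed by 0.05, and Uhrf1, which guides Dnmt1 to replicating DNA, differed by 0.31. Of 8 genes of 5-methylcytosine oxidation and removal, 3 were higher in Dnmt1 KD and 1 in Mbd3 KD, against 7.97% and 4.62% of all genes. Gadd45g, a member of a stress-induced family linked to demethylation, was higher in Dnmt1 KD (-0.06 and 0.16 against -1.16 and -1.07, difference 1.17), Gadd45b (0.50) and Smug1, a uracil-DNA glycosylase (0.40), likewise, and Gadd45a lay on the other side (-0.59). Of 18 polycomb genes, 2 were higher in Dnmt1 KD and 1 in Mbd3 KD, near the 7.97% and 4.62% of all genes. The latter, Phf19, was higher in Mbd3 KD (0.76 and 1.03 against -0.28 and -1.18, difference -1.62).

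**Figure D4:**
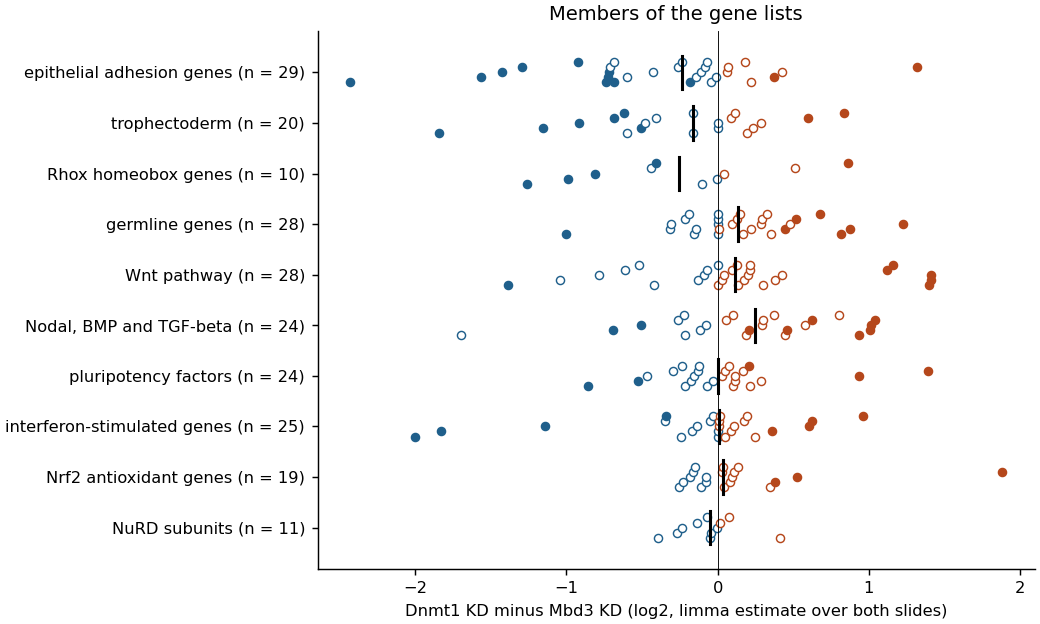
Each circle is 1 gene of a list, placed by its Dnmt1 KD minus Mbd3 KD difference (log2, limma estimate over both slides), with orange above 0, blue below 0, and filled circles for an unadjusted p under 0.05. The vertical spread within a row only separates the circles, and black bars are list medians, which among the 10 lists plotted run from -0.26 for the Rhox genes to 0.25 for the Nodal, BMP and TGF-beta genes.

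Of 22 primitive endoderm genes, 4 were higher in Dnmt1 KD and 2 in Mbd3 KD, against 7.97% and 4.62% of all genes, with a median of 0.18, and without Dnmt1 KD replicate 2 the counts were 0 and 2. The endocytic receptor Cubn and its membrane partner Amn had opposite directions, with 1.13 for Cubn and -2.32 for Amn, which read 0.14 and 0.61 in Mbd3 KD and -1.93 and -1.97 in Dnmt1 KD. Of 9 tested genes whose loci the study itself discusses, 1 was higher in Dnmt1 KD and 3 in Mbd3 KD, against 7.97% and 4.62% of all genes. Their median was -0.51, and as the study chose them they are no independent evidence of a direction. Ppp2r2c, a regulatory subunit of protein phosphatase 2A, read 0.90 and 0.87 in Mbd3 KD and -0.51 and -0.40 in Dnmt1 KD (difference -1.34, SE 0.16), and the others higher in Mbd3 KD were Cldn7 and Tgfb1 (-0.51).

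A few genes outside these lists had larger differences and were chosen after their values were seen. Wt1, the Wilms tumor transcription factor, read -0.46 and -0.91 in Dnmt1 KD and -4.17 and -4.79 in Mbd3 KD, with 1 of the 2 Mbd3 KD arrays well above background, and its difference of 3.79 (SE 0.30) rests on levels near the floor in Mbd3 KD. On slide 3 Wt1 read -2.41 in Chd4 KD and -1.24 on the array labelled Mbd2 KD. In the other direction Napsa, an aspartic protease, read 1.12 and 1.75 in Mbd3 KD and -1.01 and -0.89 in Dnmt1 KD (difference -2.39, SE 0.21). Baz1a, a subunit of ISWI remodelers, read 0.75 and 0.92 in Mbd3 KD and -1.77 and -1.05 in Dnmt1 KD (difference -2.24, SE 0.19).

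Some families, also chosen after their values were seen, held several such genes. Padi2, Padi3 and Padi4 were higher in Mbd3 KD, by -2.03, -1.38 and -1.43 as Dnmt1 KD minus Mbd3 KD, while Padi1 differed by -0.06 and Padi6 was near the floor. Of 10 aldo-keto reductases of the Akr1b and Akr1c groups, 4 were higher in Dnmt1 KD at an unadjusted p under 0.05 and 0 in Mbd3 KD, against 7.97% and 4.62% of all genes, Akr1b8 among them, with Akr1c13 at -0.60 and -0.18 against -2.07 and -2.47 (difference 1.88, SE 0.27). Of 4 ferritin-like Fthl17 genes, 3 were higher in Dnmt1 KD, by 1.39, 1.34 and 0.88, against 7.97% of all genes. Fthl17a differed by -0.60. These X-linked copies are similar enough that their probes may share signal.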

How the data were processed

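RNA from mouse E14 ES cells was measured on one-colour Agilent arrays. The authors deposited each array's Feature Extraction 10.7.1.1 output, whose processed intensity is background-corrected and not normalized between arrays. A second deposited file holds log2 ratios to EGFP KD, taken between quantile-normalized log2 signals and so on a smaller scale. It was used only as an alternative. Groups came from the sample labels and slides from the file headers.

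Of the spots, 43020 were not controls. The 1377 controls and any spot marked as an outlier on an array were dropped. Each array was scaled to its 75th percentile of intensity, floored at 0.0344 (log2 -4.86) and log2-transformed, and spots of one probe were averaged (39429 probes). A probe was kept if 1 or more of the 5 KD groups had it well above background in both replicates (36086), and the probe with the highest mean stood for a gene. Accessions were named through a GRCm38.p6 gene table, which matched 71.4% of spots. For 133 genes an outlier spot left at least 1 of the 4 arrays without a value.

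Differences were fitted with limma 3.58.1 in R 4.3.3 on the 10 KD arrays, as 5 groups with slide as a block. The estimate uses the Dnmt1 KD and Mbd3 KD arrays, and the others can add only to the estimate of spread (3 residual degrees of freedom, to which the Chd4 KD arrays added none). Of those, 1 Tet1 KD and 1 Mbd2 KD array go against their labels: Tet1 read 2.05 in Tet1 KD replicate 1 but 0.28 in Mbd2 KD replicate 1. A fit without these groups was run. Genes with an adjusted p under 0.05 were to be called. Named genes are the targets, then up to 12 per direction among genes with a symbol, the same direction on both slides, and well above background on both arrays of the higher KD. As none was called, these were taken by unadjusted p (under 0.05) at a difference of at least 1. From each of 33 gene lists, members with the smallest unadjusted p could be named. Members and lists were chosen with earlier results of these data known. The labels do not state whether replicates came from separate cultures, so p-values measure the spread between these samples, and the number of arrays limits precision. The steps were tested on simulated data. Alternatives were other normalizations and background corrections, filters, floors, probe rules, blocks, sets of arrays, thresholds and each array left out. Local centring, which subtracts each array's median residual in blocks of 19 rows by 9 columns of spots, and variants of the 12-array fit were added after seeing the data.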

Additional observations from a re-analysis of the deposited data

How the results depend on the processing

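All 26 named genes, targets included, kept their direction in almost every refit. Only 24 were present among probes well above background on all 4 arrays. When every probe was tested, a second probe of Wdr95 (-0.35) and one of Ankrd34a (-0.14) had the opposite direction. Apart from the targets, they were picked for the same direction on both slides and a difference of at least 1. Their kept direction was thus nearly fixed by the choice and is weak evidence. Dnmt1 passed no adjusted threshold of 0.05. The pairing by slide decides the spread and not the estimate. With no replicate block 53 genes were called, with the replicate block in place of slide 25, and over all 12 arrays with slide 208 (125 higher in Dnmt1 KD), among them all named genes but Dnmt1. The 12-array calls are fragile, since leaving out any 1 array gave between 0 and 511, with 511 without Mbd3 KD replicate 2, 26 without Dnmt1 KD replicate 2, 1 without either Tet1 KD array and 0 without any other single array. Leaving either EGFP KD array or either Chd4 KD array out of the 12 only gives back the main fit, so those cases are no separate sign of fragility. The 12 arrays with no replicate block, added later, gave 195. Leaving out 1 of the 10 KD arrays gave 0 calls in every case. Normexp background correction gave 2 calls, probes well above background on all 4 arrays 9, no filter on dim probes 1, local centring 8, the values deposited by the authors 675 (of 7425 genes) and an unadjusted p under 0.05 3753. Quantile normalization, a lower floor, the other probe rules, only the 4 arrays (smallest adjusted p 0.594 with the replicate block and 0.771 with no replicate block), no Tet1 KD and Mbd2 KD arrays, another variance prior, array weights and an adjusted p under 0.1 gave 0. Genes with an unadjusted p under 0.05 and higher in Dnmt1 KD numbered 1470 under normexp, 1255 in the deposited table, 1411 with no replicate block, 1032 with only the 4 arrays and no replicate block and 1450 over 12 arrays with no replicate block. Those higher in Mbd3 KD numbered 845, 564 and 894 under these last 3 settings, 827 with only the 4 arrays and the replicate block or without the Tet1 KD and Mbd2 KD groups. Leaving out 1 array moved the first count between 1695 and 2376 and the second between 1088 and 2648, the extreme being without Dnmt1 KD replicate 1, which put 46.3% of the genes on the Dnmt1 KD side, and over 12 arrays the ranges were 2077 to 2539 and 1164 to 2862. For Mbd3 the difference passed an adjusted p of 0.05 at 2.70 under normexp, 0.313 in the deposited table's units, 2.82 with no replicate block, the replicate block, brighter probes, 12 arrays or local centring, and 2.87 over 12 arrays without Mbd3 KD replicate 2. The causes of these changes were not tested beyond fewer arrays leaving fewer degrees of freedom. Probes near the floor give only bounds, and the difference of Fam43b was 1.497 under normexp.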
